A study of Mus musculus with 8 samples.

Results

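Mitochondrial fatty acid oxidation was described here through 10 genes, Cpt2, Acadm, Acadl, Acadvl, Hadha, Hadhb, Acaa2, Etfa, Etfb and Etfdh. They were chosen by symbol from the 43430 gene rows of the count table. Their products serve fatty acid oxidation or the passage of its electrons to ubiquinone. RNA was taken at postnatal day 15 from lung endothelial cells, sorted for CD31, of C57BL/6 mice, with 4 wild-type (WT) libraries and 4 libraries of the knockout (KO) of QPC, a subunit of respiratory complex III taken here to be Uqcrq. The labels give tamoxifen from postnatal day 0 to day 4 for libraries of both groups, and they name no Cre line. They do not say that the libraries come from different animals. The p-values therefore measure only how these samples spread, which may be technical. WT replicate 3 had the fewest counts in all, 6407924, and KO replicate 4 the most, 13981329.

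Mitochondria shorten fatty acids in repeated rounds of dehydrogenation, hydration, a further dehydrogenation and thiolysis, a sequence called beta-oxidation. Acyl-CoA dehydrogenases, which open each round, give their electrons to the electron transfer flavoprotein (ETF), and ETF passes them through its own oxidoreductase in the inner membrane to ubiquinone. Complex III takes electrons from reduced ubiquinone, so that this route, like complex I and complex II, ends at the complex that was targeted here. Capillary endothelium takes up fatty acids from blood lipoproteins and also oxidises some of them itself.

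The targeted gene was read first. Uqcrq expression was 26.3, 24.5, 26.8 and 31.5 normalised counts (CPM, scaled to a common library size with TMM factors) in WT replicates 1 to 4. In KO replicates 1 to 4 it was 1.59, 15.6, 9.57 and 14.0 CPM. Every KO value was under every WT value, and the KO mean was 37.3% of the WT mean (exact two-sided permutation p = 0.02857, the lowest value this design allows). The edgeR fit over all genes gave an adjusted p of 0.179. The endothelial markers, 10 of 10 of them tested, summed to 14510 to 17390 CPM in WT and 12740 to 16360 CPM in KO. Of the 10, 2 were called lower, against 1.39% of all genes. These were Tek (log2 fold change -0.69, edgeR adjusted p = 0.0076) and Erg (-0.67, edgeR adjusted p = 0.023). The others, Pecam1 and Cdh5 among them, were not called. Alveolar type 2 markers, from an epithelial cell, were present in every library, at 4022 to 22620 CPM in WT and 3790 to 16510 CPM in KO, and 0 of the 10 were called. Alveolar type 1 markers summed to 2018 to 2543 CPM in WT and 1042 to 2052 CPM in KO. Fibroblast markers summed to 396 to 1471 CPM in WT and 309 to 1323 CPM in KO, with 1 of 8 called lower, Mfap4. Macrophage and monocyte markers summed to 465 to 2037 CPM in WT and 412 to 1503 CPM in KO. Markers of adipocytes and cardiomyocytes, other cells rich in fatty acid oxidation, were low. The 9 adipocyte markers summed to at most 3.02 CPM in any library, with Adipoq, Cidec, Cidea, Ucp1, Lep and Retn at 0 counts throughout. The 10 cardiomyocyte markers summed to 18.4 to 48.2 CPM in WT and 36.9 to 111 CPM in KO, the highest in KO replicate 3. KO replicate 3 also had the highest KO alveolar type 2 sum, 16510 CPM. Leaving out KO replicate 3 gave log2 fold changes of 0.42 for Acadl, -0.45 for Acaa2 and 0.58 for Etfb. Whether cardiomyocyte RNA is a cause of any change was not tested.

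None of the 10 fatty acid oxidation and ETF genes differed between KO and WT at an adjusted p under 0.05, with 0 higher and 0 lower (edgeR, quasi-likelihood, Benjamini-Hochberg over 12689 genes). Of all genes tested 3.63% passed, 2.25% higher and 1.39% lower in KO. All 10 were expressed and tested, and 0 were called by DESeq2 or limma voom as well. At an unadjusted p under 0.05 there were 3, Acadl, Acaa2 and Etfb, against 15.2% of all genes. The KO and WT libraries did not overlap for 2 of the 10, Acadl with KO above WT and Acaa2 with KO below, against 11.6% of all genes (6.94% with KO above and 4.67% with KO below). Fitted log2 fold changes were positive for 6 members and negative for 4, with a median of 0.038 beside 0.013 over all genes tested. For 9 of the 10 the 95% interval of the fold change, which is not adjusted for the number of genes, lay within a 2-fold change in either direction, as it did for 38.9% of all genes. Etfb was the exception, with an upper bound of 2.03-fold. The 10 genes together summed to 788, 686, 805 and 845 CPM in WT replicates 1 to 4 and to 906, 787, 814 and 931 CPM in KO replicates 1 to 4, so the groups overlapped. In bulk RNA a change in the share of cells that express a gene and a change in RNA per cell cannot be told apart.

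**Figure D1:**
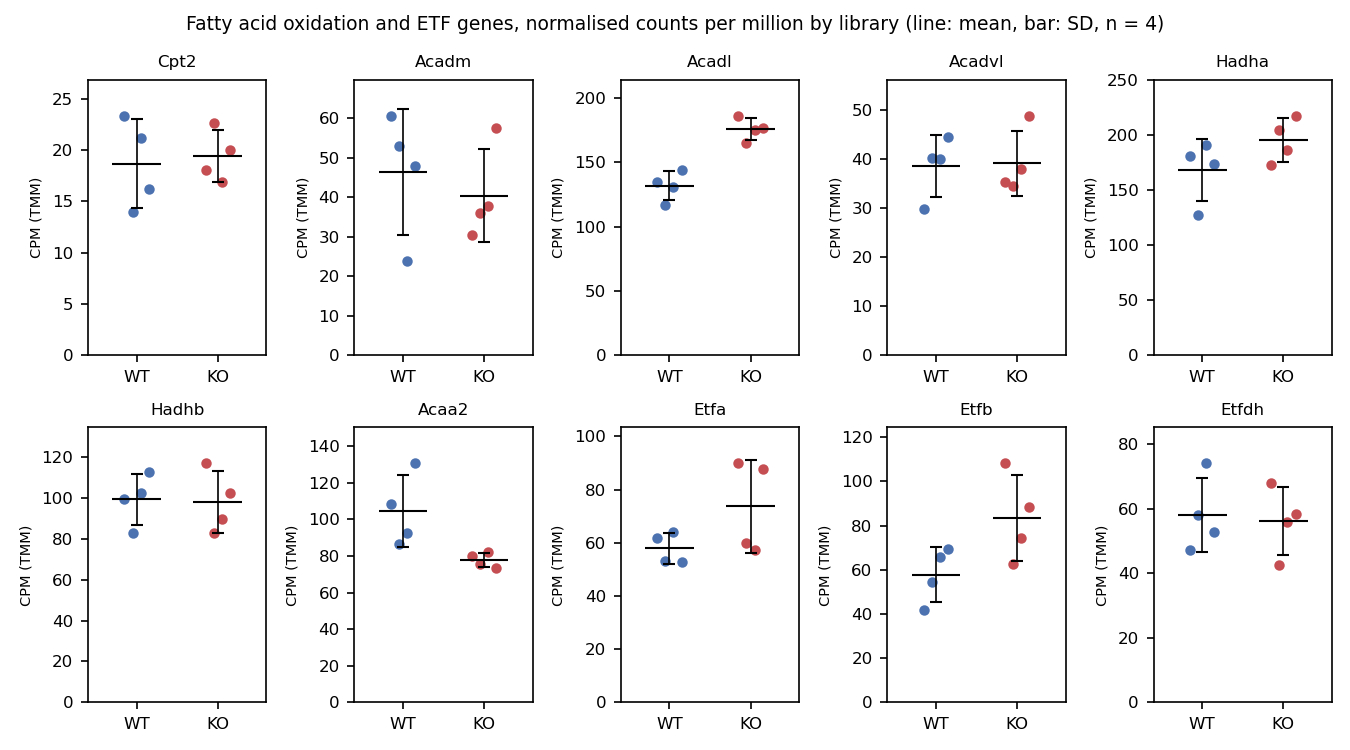
Normalised counts (y axis, CPM, from 0) of each of the 10 genes in the 4 WT and 4 KO libraries, with 1 point per library, the mean as a line and the SD as a bar. The groups are separated for Acadl, with KO higher, and for Acaa2, with KO lower, and overlap for the other 8 genes.

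**Figure D2:**
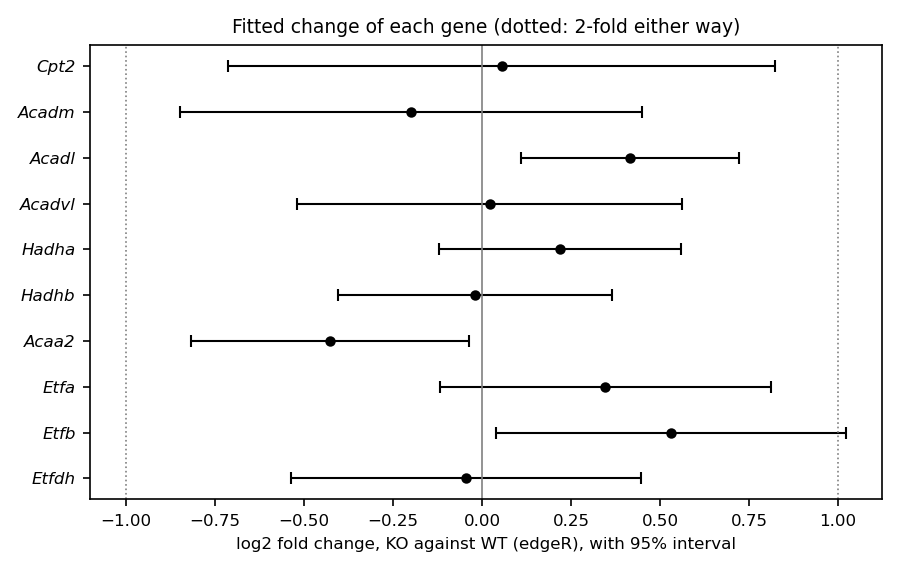
Fitted log2 fold change of KO against WT from edgeR (x axis) for each of the 10 genes, with its unadjusted 95% interval as a bar and dotted lines at a 2-fold change either way. Only the Etfb interval crosses a dotted line, and those of Acadl, Acaa2 and Etfb leave out 0.

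Cpt2 is the inner membrane carnitine palmitoyltransferase, which turns acylcarnitines back into acyl-CoA inside mitochondria. At chr4:107903981-107923610 (GRCm38), it had counts from 14.0 to 23.3 CPM in WT and from 16.9 to 22.6 CPM in KO, on 142 to 289 reads per library. The fitted fold change was 1.04 (95% interval 0.609 to 1.77), the widest interval of the 10, and the adjusted p was 0.984 by edgeR.

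The acyl-CoA dehydrogenases open each round and differ in the chain length they prefer. Acadl, the long-chain enzyme (chr1:66830839-66863277), was at 135, 117, 131 and 144 CPM in WT replicates 1 to 4 and at 186, 165, 175 and 177 CPM in KO replicates 1 to 4. The lowest KO library lay above the highest WT library, with means of 176 ± 8.62 CPM in KO and 132 ± 11.3 CPM in WT (SD, n = 4 each). The log2 fold change was 0.42 (SE 0.14), a fold of 1.33 with a 95% interval of 1.08 to 1.65, and it did not pass the threshold (edgeR adjusted p = 0.143, from 0.0847 to 0.382 over 23 alternatives). The estimate was 0.43 in a fit that carried the alveolar type 2 level as a term and 0.29 after removal, library by library, of the dependence on transcript length and GC content.

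Acadm, the medium-chain enzyme (chr3:153922357-153944632), was at 60.6, 53.0, 23.8 and 48.0 CPM in WT replicates 1 to 4 and at 30.4, 35.9, 37.7 and 57.6 CPM in KO replicates 1 to 4. WT replicate 3, the library with the fewest reads, stood below all others on 159 Acadm reads, and KO replicate 4 stood among the WT libraries. The log2 fold change was -0.20 (SE 0.31, edgeR adjusted p = 0.88), and it was -0.41 without WT replicate 3. Leaving out KO replicate 4 gave -0.43, and leaving out WT replicate 1 gave -0.042. Acadvl, the very long-chain enzyme (chr11:70010183-70015411), ranged from 29.7 to 44.4 CPM in WT and from 34.4 to 48.7 CPM in KO, with a fitted fold of 1.01 (95% interval 0.698 to 1.48). Exons of Acadvl overlap those of Dvl2 on the opposite strand, and reads there cannot be assigned to either gene because the strand setting of the counting is not given in the sources used here.

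The mitochondrial trifunctional protein carries the later steps for long chains. Its alpha subunit, Hadha, holds the hydratase and hydroxyacyl-CoA dehydrogenase activities, and its beta subunit, Hadhb, the thiolase. Their genes lie head to head on chromosome 5, at chr5:30118304-30155162 (Hadha) and chr5:30155248-30184593 (Hadhb). The stretch between the GENCODE gene models is shown because it lies upstream of both genes, whose levels are compared next. The RefSeq promoter table (GRCm38.p6) held 9 of the 10 members, and its windows for Hadha and Hadhb overlapped by 228 bases. The RefSeq start of Hadha lies within its GENCODE model, so the gap does not border that start. The gap of 85 bases is given on the plus strand at chr5:30155163-30155247, with Hadha to its left and Hadhb to its right and GC boxes (GGGCGG, a binding sequence of SP1-type factors) in capitals.
Hadha-Hadhb: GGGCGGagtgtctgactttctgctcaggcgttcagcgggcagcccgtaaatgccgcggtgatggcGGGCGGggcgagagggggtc
The stretch held 2 GC boxes and was 69.4% G or C. A GC box on either strand stood in 32.7% of 32851 promoter windows of 250 bases upstream.

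Hadha was at 181, 127, 191 and 174 CPM in WT replicates 1 to 4 and at 173, 205, 186 and 218 CPM in KO replicates 1 to 4. Hadhb was at 99.3, 82.5, 102 and 112 CPM in WT replicates 1 to 4 and at 117, 82.7, 89.4 and 102 CPM in KO replicates 1 to 4. The groups overlapped for both subunits, and WT replicate 2 was the lowest WT library for each. The fold change was 1.16 for Hadha (95% interval 0.919 to 1.47, edgeR adjusted p = 0.629) and 0.986 for Hadhb (0.755 to 1.29, edgeR adjusted p = 0.988). Exons of Hadha overlap those of Garem2 on the opposite strand.

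Hadha gave 1.82, 1.54, 1.86 and 1.54 reads per Hadhb read in WT replicates 1 to 4 and 1.48, 2.48, 2.08 and 2.13 in KO replicates 1 to 4. KO replicate 1 lay below every WT library and the other 3 KO libraries above. The mean log2 ratio was 0.25 higher in KO (exact two-sided permutation p = 0.2, adjusted p = 0.3 over 6 ratios).

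Acaa2 is the thiolase that releases acetyl-CoA from medium-length chains at the end of a round. It was at 109, 86.9, 92.8 and 131 CPM in WT replicates 1 to 4 and at 80.3, 75.8, 82.1 and 73.5 CPM in KO replicates 1 to 4. The highest KO library lay below the lowest WT library, and the KO libraries were closer together, with means of 77.9 ± 3.96 CPM in KO and 105 ± 19.6 CPM in WT (SD, n = 4 each). The log2 fold change was -0.43 (SE 0.18), a fold of 0.743 with a 95% interval of 0.567 to 0.975, and it did not pass (edgeR adjusted p = 0.267, from 0.0762 to 0.56 over 23 alternatives). It was -0.37 with the alveolar type 2 level as a covariate, -0.60 with the length and GC trend removed and -0.30 without WT replicate 4, its highest library.

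ETF is a dimer of the Etfa and Etfb products, and Etfdh encodes ETF-ubiquinone oxidoreductase, the flavin and iron-sulphur enzyme that reduces ubiquinone. For each gene 100 upstream bases are shown on the gene's strand, 5′ to 3′, because the balance of these 3 genes is compared below. They end next to the RefSeq start of Etfa and Etfb and next to the start of the principal GENCODE transcript of Etfdh, which lies upstream of its RefSeq start. The Etfdh stretch falls within the GENCODE gene, since another transcript of it begins further upstream. Their positions in GRCm38.p6 are chr9:55512244-55512343 for Etfa (minus strand), chr7:43443972-43444071 for Etfb (plus strand) and chr3:79628864-79628963 for Etfdh (minus strand). Capitals mark CCAAT boxes (CCAAT, or ATTGG on the other strand) and the palindrome core of NRF1, a factor known for nuclear genes of respiration.
Etfa: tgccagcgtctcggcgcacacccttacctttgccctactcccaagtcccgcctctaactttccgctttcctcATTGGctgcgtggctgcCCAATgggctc
Etfb: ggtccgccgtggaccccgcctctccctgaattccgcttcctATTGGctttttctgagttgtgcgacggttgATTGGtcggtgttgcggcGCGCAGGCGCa
Etfdh: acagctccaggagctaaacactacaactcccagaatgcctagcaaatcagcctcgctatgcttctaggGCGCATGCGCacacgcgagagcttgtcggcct
The NRF1 core stood in Etfb and Etfdh among the 9 members with a window of 250 bases, and in 3.74% of all windows. A CCAAT box stood in the windows of Etfa, Etfb and Etfdh, for Etfdh at -236 from its RefSeq start and so outside the printed stretch, and in 33.8% of all windows. The elements TNAAGGTCA (of estrogen-related receptors), the PPAR direct repeat and TGATGNAA (of ATF4 with CHOP), searched on both strands, had 0 matches in the 9 windows, against 1.14%, 0.0335% and 3.45% of all windows. Matches describe letters and are not measured binding sites.

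Etfa was at 61.7, 53.1, 64.1 and 52.9 CPM in WT replicates 1 to 4 and at 89.9, 59.7, 57.4 and 87.7 CPM in KO replicates 1 to 4. KO replicates 1 and 4 stood above every WT library, while KO replicates 2 and 3 lay within the WT range. Etfb was at 42.0, 54.3, 65.6 and 69.4 CPM in WT replicates 1 to 4 and at 108, 62.9, 74.6 and 88.5 CPM in KO replicates 1 to 4. The same pair of KO libraries was highest, and KO replicate 2 lay among the WT libraries. KO replicates 1 and 4 were also the KO libraries with the lowest alveolar type 2 sums, 3790 and 7003 CPM. WT replicate 2 had the lowest WT sum, 4022 CPM, with Etfa at 53.1 and Etfb at 54.3 CPM. Whether the alveolar type 2 level is a cause was not tested. With the alveolar type 2 level as a covariate the log2 fold change was 0.28 for Etfa and 0.45 for Etfb.

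The log2 fold change was 0.35 for Etfa (SE 0.22, edgeR adjusted p = 0.542) and 0.53 for Etfb (SE 0.23, edgeR adjusted p = 0.272). For Etfb this was a fold of 1.44 with a 95% interval of 1.03 to 2.03. Removal of the length and GC trend left 0.26 for Etfb (edgeR adjusted p = 0.778), and leaving out KO replicate 1 left 0.38. Etfdh was at 47.3, 58.0, 74.1 and 52.9 CPM in WT replicates 1 to 4 and at 68.1, 42.5, 56.0 and 58.3 CPM in KO replicates 1 to 4. The groups overlapped over most of their range, with a fold of 0.969 (95% interval 0.689 to 1.36, edgeR adjusted p = 0.977). Exons of Etfdh overlap those of 4930579G24Rik on the opposite strand, and those of Etfb hold Mir7051 on the same strand, so reads there cannot be assigned with certainty.

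Set against its electron donor within each library, Etfdh gave 0.456, 0.539, 0.571 and 0.432 reads per read of Etfa plus Etfb in WT replicates 1 to 4 and 0.344, 0.347, 0.424 and 0.331 in KO replicates 1 to 4. Each KO value was under each WT value, which held for no other of the 6 ratios compared. The mean ratio was 0.361 ± 0.0426 in KO and 0.500 ± 0.0662 in WT (SD, n = 4 each), a mean log2 difference of -0.47. The exact two-sided permutation p was 0.02857, the smallest that 4 against 4 can give, and 0.171 after adjustment over the 6 ratios. Once the length and GC trend was taken out, which for the ratios was added after the data were seen, the groups overlapped and the difference was -0.25 (exact permutation p = 0.0857). The principal transcripts of Etfa and Etfb, at 1392 and 893 bases, are shorter than that of Etfdh, at 2377 bases. The trend itself was fitted on the length and GC content of each gene's longest transcript. Whether length or GC content moved the ratio was not tested. Etfa to Etfb itself had a mean of 1.05 ± 0.300 in WT and 0.885 ± 0.104 in KO (exact permutation p = 0.457).

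Among the acyl-CoA dehydrogenases the ratio of Acadl to Acadvl reads averaged 4.58 ± 0.696 in KO and 3.50 ± 0.717 in WT (SD, n = 4 each). WT replicate 1, at 4.54, lay among the KO libraries (exact permutation p = 0.0571, adjusted p = 0.171 over 6 ratios). Acadl to Acadm averaged 4.60 ± 1.24 in KO and 3.23 ± 1.55 in WT (exact permutation p = 0.171), and Acadvl to Acadm 0.992 ± 0.129 and 0.962 ± 0.510 (exact permutation p = 0.657). WT replicate 3 had the highest WT value of both ratios to Acadm, 5.50 and 1.68.

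**Figure D3:**
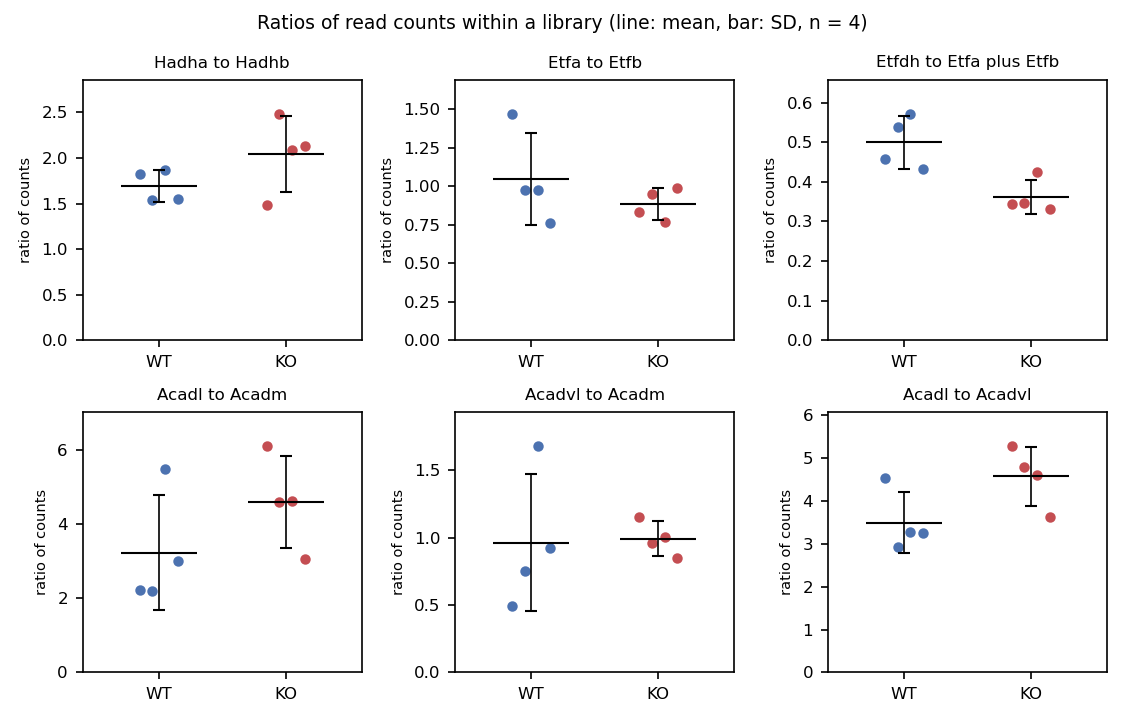
Ratios of read counts within each library (y axis, from 0) for 6 pairs, in 4 WT and 4 KO libraries, with 1 point per library, the mean as a line and the SD as a bar. The groups are separated for Etfdh to Etfa plus Etfb, at 0.432 to 0.571 in WT and 0.331 to 0.424 in KO, and overlap for the other 5.

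Levels of different genes were compared as CPM per kilobase of the principal transcript. In WT the order was Acaa2 at 69.1 ± 12.9, Acadl at 68.7 ± 5.86, Etfb at 64.8 ± 13.8, Hadhb at 48.4 ± 6.07, Hadha at 41.8 ± 7.01 and Etfa at 41.6 ± 4.16 (SD, n = 4). The ranges of neighbours in that order overlapped from Acaa2 through Etfa. Below a gap came Etfdh at 24.4 ± 4.86, Acadm at 22.6 ± 7.78 and Acadvl at 17.8 ± 2.88, again with overlapping neighbours. Cpt2, at 7.88 ± 1.83, lay below all of them without overlap. In KO the order began with Etfb at 93.6 ± 21.9 and Acadl at 91.7 ± 4.51, which overlapped each other and lay above Etfa at 52.9 ± 12.6, while Acaa2 was in position 4 at 51.4 ± 2.61. The last 4 positions were the same genes in the same order as in WT. The WT order and its gap depend on the length used. With the union of all annotated exons as the length, Etfdh was in position 10 in WT at 7.74 ± 1.54. Its exon union of 7505 bases is far longer than its principal transcript. By the exon union Hadha, at a WT mean of 19.3, stood above Hadhb, at 15.0. Both then lay below Etfa, at 31.6, without overlap.

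**Figure D4:**
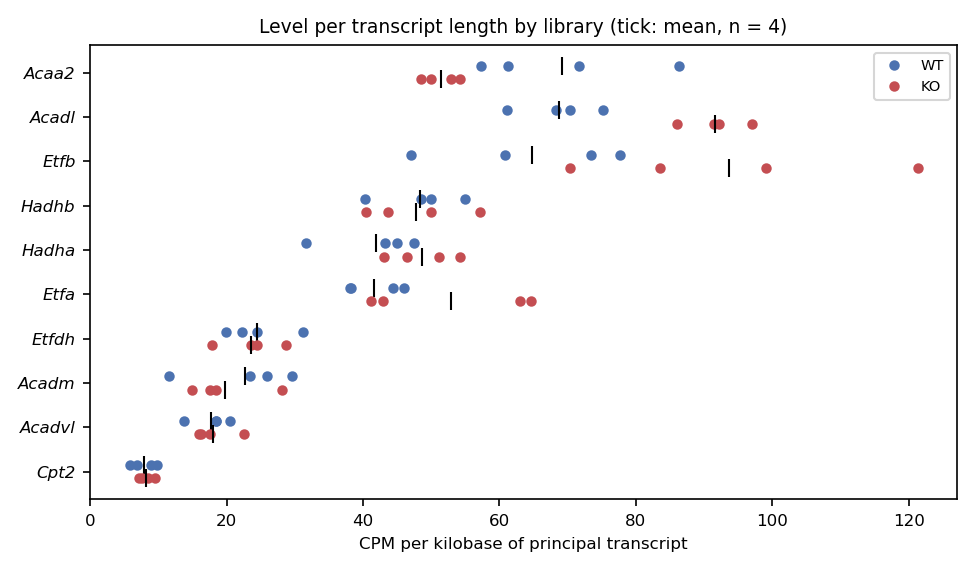
Level per transcript length (x axis, CPM per kilobase of principal transcript, from 0) for the 10 genes in order of the WT mean, with 1 point per library in WT and KO and the mean as a tick. Acadl, Etfb and Acaa2 lead in WT, and Cpt2 is lowest in both groups.

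The genes whose centred log2 profile over the 8 libraries was nearest to the mean profile of the 10 members, by root mean square difference, were Ap3b1 (0.035), Hecw2 (0.071), Lgals9 (0.080), Gnai2 (0.084) and Ephb4 (0.086). On the log2 scale the mean member profile was lowest in WT replicate 2, at -0.17, and highest in KO replicate 4, at 0.20. That mean joins members with changes of both signs, such as Acadl and Acaa2, so a gene near it need not follow any single member.

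The rest of the pathway was followed in 8 lists that hold 97 genes, of which 85 were tested. By edgeR at an adjusted p under 0.05, 0 were called in each direction, against 3.63% of all genes. DESeq2 and limma voom called 0 too. Among the genes named below, DESeq2 gave no adjusted p for Prodh, Pdss1 and Pdss2, so it left them unjudged. By edgeR 8 of the 85 had an unadjusted p under 0.05, against 15.2% of all genes. The libraries of KO and WT did not overlap for 11 of the 85, against 11.6% of all genes. Values are means ± SD of 4 libraries. The median log2 fold change over the 85 genes was 0.087 beside 0.013 over all genes tested.

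Of 16 tested genes of other beta-oxidation enzymes and linked acyl-CoA steps 0 were called, with a median log2 fold change of -0.012. The list also holds genes outside the rounds themselves, such as Pcca, Pccb, Mcee and Mut. Acat1, the mitochondrial acetoacetyl-CoA thiolase, averaged 121 ± 20.4 CPM in KO against 84.1 ± 16.2 CPM in WT (edgeR adjusted p = 0.17). Mut, the methylmalonyl-CoA mutase that handles odd-chain products, ranged from 30.2 to 36.0 CPM in KO and from 43.2 to 54.3 CPM in WT, without overlap (edgeR adjusted p = 0.262). Acsm3 and Acsm5 had 0 counts in every library.

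The carnitine shuttle and acyl-CoA synthetases, which activate fatty acids and bring them in, had 0 of 9 tested genes called and a median of 0.24. Cpt1a, the outer membrane enzyme that makes acylcarnitines, averaged 313 ± 37.1 CPM in KO against 265 ± 34.5 CPM in WT (edgeR adjusted p = 0.497). Slc22a5, the carnitine transporter of the cell surface, averaged 21.3 ± 10.9 CPM in KO against 39.4 ± 11.2 CPM in WT (edgeR adjusted p = 0.305). Cpt1b, the muscle form of the outer membrane enzyme, had at most 6.58 CPM in any library and was not tested.

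Other dehydrogenases that feed ETF, from amino acid breakdown, had 0 of 7 called and a median of -0.080. Gcdh, the glutaryl-CoA dehydrogenase of lysine breakdown, ranged from 1.12 to 11.7 CPM in KO and from 18.4 to 21.1 CPM in WT. Those groups did not overlap, with a log2 fold change of -1.19 (SE 0.59, edgeR adjusted p = 0.365). Sardh, the sarcosine dehydrogenase, averaged 27.6 ± 3.27 CPM in KO against 37.9 ± 8.73 CPM in WT (edgeR adjusted p = 0.513).

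Enzymes that reduce ubiquinone by other routes had 0 of 8 called and a median of 0.17. Prodh, the proline dehydrogenase, was at 17.7, 20.9, 16.0 and 11.7 CPM in WT replicates 1 to 4 and at 5.34, 5.01, 3.64 and 9.92 CPM in KO replicates 1 to 4. The groups did not overlap, and the log2 fold change was -1.47 (SE 0.57, edgeR adjusted p = 0.208). Sdhd, a membrane anchor of complex II, averaged 102 ± 13.3 CPM in KO against 77.4 ± 17.5 CPM in WT (edgeR adjusted p = 0.375).

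Ubiquinone synthesis had 0 of 13 called and a median of 0.26. Pdss1, a subunit of the enzyme that builds the isoprenoid tail of ubiquinone, had 0 counts in 3 WT libraries, 3.71 CPM in WT replicate 2 and 5.21 to 14.2 CPM in KO. Pdss1 did not pass, with a log2 fold change of 3.06 (edgeR adjusted p = 0.471). Without WT replicate 2 every remaining WT library was at 0 counts. The estimate then rose to 9.51 and Pdss1 passed (edgeR adjusted p = 0.039), which rests on the choice of the library removed. Pdss2, the other subunit, averaged 10.8 ± 9.54 CPM in KO against 3.07 ± 3.10 CPM in WT (edgeR adjusted p = 0.575). KO replicate 1, at 24.3 CPM, carried much of that mean, and the log2 fold change of 1.82 was 1.04 without it and 2.70 without WT replicate 3.

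Flavin supply and ETF factors had 0 of 7 called and a median of 0.032. The list joins Rfk, Flad1, Slc25a32, Slc52a2 and Slc52a3, which bring in riboflavin or make and move FAD, the cofactor of acyl-CoA dehydrogenases and ETF, with Etfbkmt, a methyltransferase acting on ETFB, and Etfrf1, a regulator that removes flavin from ETF. Slc52a3, a riboflavin transporter, ranged from 14.1 to 19.3 CPM in KO and from 8.45 to 9.72 CPM in WT, without overlap (edgeR adjusted p = 0.384). Slc52a2, another riboflavin transporter, averaged 21.1 ± 9.43 CPM in KO against 9.89 ± 3.64 CPM in WT (edgeR adjusted p = 0.285).

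Peroxisomal beta-oxidation, which handles chains that mitochondria do not take directly, had 0 of 11 called and the lowest median of the 8 lists, -0.23. Scp2, whose products include a peroxisomal thiolase, ranged from 114 to 152 CPM in KO and from 154 to 201 CPM in WT (edgeR adjusted p = 0.237). Crot, the peroxisomal carnitine octanoyltransferase, averaged 27.5 ± 6.82 CPM in KO against 45.0 ± 12.9 CPM in WT (edgeR adjusted p = 0.24).

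Regulators of fatty acid use had 0 of 14 tested genes called and a median of 0.11. Ppara, the receptor that drives fatty acid oxidation in liver and heart, had at most 0.235 CPM in any library and was not tested. Angptl4, an inhibitor of lipoprotein lipase and a PPAR target, ranged from 18.8 to 25.4 CPM in KO and from 4.35 to 16.3 CPM in WT (edgeR adjusted p = 0.371). Mlycd, which removes the malonyl-CoA that inhibits Cpt1a, averaged 15.4 ± 5.46 CPM in KO against 27.0 ± 15.7 CPM in WT (edgeR adjusted p = 0.493).

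**Figure D5:**
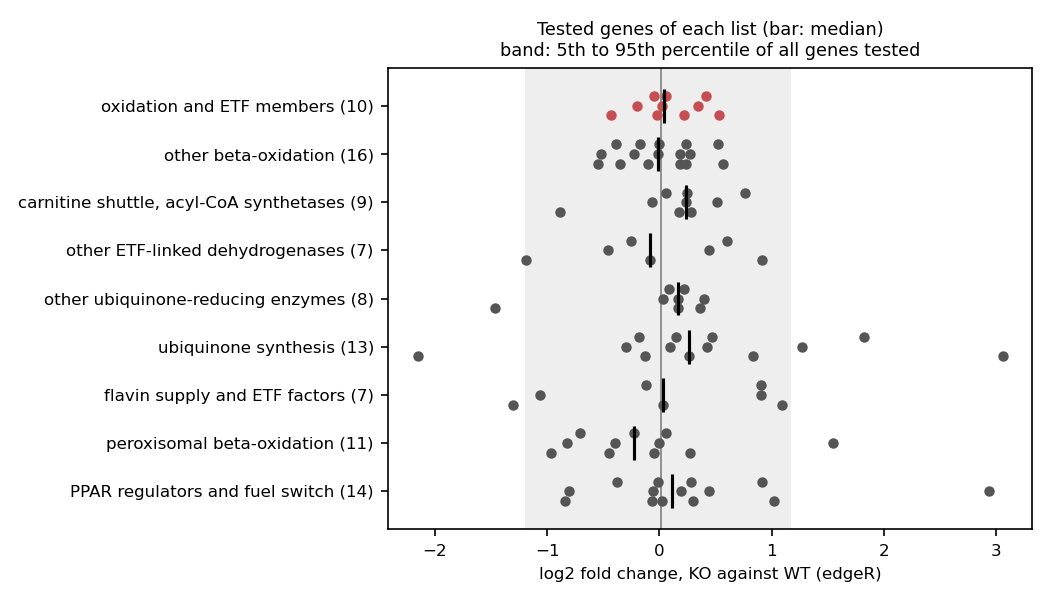
Fitted log2 fold change of KO against WT (x axis) for every tested gene of the 10 members and of the 8 pathway lists, with the number tested in brackets, the list median as a bar and a band from the 5th to the 95th percentile of all genes tested (-1.19 to 1.16). All 10 members lie inside the band, between -0.43 and 0.53, with a median of 0.038.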

How the data were processed

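The authors deposited read counts by gene, as whole numbers. Each of the 8 columns matched 1 sample title and 0 were left over. The tools named per the submitters' processing notes are HTSeq, TopHat, edgeR and bcl2fastq, with the mm10 build, and the sources used here give no version, annotation release or strand setting. Gene positions and lengths came from GENCODE M21 (GRCm38). In R 4.3.3, filterByExpr (a minimum count of 10, and 15 in total) kept 12689 genes. Counts were scaled with TMM and tested with edgeR 4.0.16 (quasi-likelihood F test, robust, genotype as the only term, Benjamini-Hochberg adjustment, threshold 0.05). Standard errors and 95% intervals came from the F statistic. Ratios were tested by exact two-sided permutation over 70 assignments. Alternatives included DESeq2 1.42.0 and limma 3.58.1. The fits were tested on simulated data.

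The members, pathway lists and marker lists were chosen with earlier results of these data known. Pathway genes named are those past the threshold and the 2 with the smallest p of each list. Acsm3, Acsm5, Cpt1b and Ppara, which were not tested, were named after their values were seen. Replicates of a group differed by more than sampling noise, with 32.4 to 74.6 for the chi-square divided by its degrees of freedom, so none was counted as a duplicate.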

Additional observations from a re-analysis of the deposited data

Results flagged for a closer look

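The ratio of Etfdh to Etfa plus Etfb reads in KO replicate 3 was 0.424, apart from the other 3 KO libraries at 0.331 to 0.347. It stood nearest to the WT libraries, of which the lowest was 0.432. In all 34 groups of 4 values were examined in this way and 1 stood out, where chance gives about 1 in 20.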

How the results depend on the processing

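The count of 0 members called held in all 23 alternatives, of which the one without both WT replicate 3 and KO replicate 1 was added after the data were seen, and the lowest adjusted p of any member in any of them was 0.0762 (Acaa2, length and GC trend removed). Acadm, Acadl, Hadha, Acaa2, Etfa and Etfb kept the sign of their change throughout. The other 4 had estimates near 0 that changed sign. Acadvl was -0.011 with RLE size factors, -0.029 with library totals only, -0.011 by DESeq2 and -0.12 after the length and GC trend was taken out, which also gave -0.062 for Cpt2 and 0.040 for Hadhb. With each library left out in turn, log2 fold changes ran from -0.059 to 0.18 for Cpt2, from -0.11 to 0.10 for Acadvl, from -0.11 to 0.054 for Hadhb and from -0.15 to 0.095 for Etfdh, and the log2 difference of the Acadvl to Acadm ratio from -0.098 to 0.50. Over all genes 461 were called (285 higher, 176 lower), 788 by DESeq2, 747 with edgeR's newer dispersion option and 270 (without KO replicate 3) to 446 with 1 library left out. Of the pathway genes 0 to 1 was called with 1 library left out. The cause of these differences was not tested. No scaling moved the median of all genes by over 0.1. Same-numbered WT and KO libraries did not deviate together (correlations -0.10 to 0.0044), and the replicate block called 338 genes, 0 of them members. Depth limits Cpt2 most, with 142 to 289 reads per library.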
